A study of Mus musculus with 2 samples.

Results

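The genes of blood vessels and of vascular signalling were examined in SOX2-GFP cells of the newborn mouse tongue. They are 37 genes, chosen by name as genes of endothelial cells, of pericytes and of angiogenic signals, among the 21628 entries of the deposited expression table. All 37 had a number in both populations and none was listed at 0. RNAseq was carried out on lingual epithelium of Sox2GFP mice, which carry a green fluorescent reporter of *Sox2*, at P0, the day of birth. The epithelium was peeled from the tongues of many pups, pooled and dissociated, and about 100000 GFP-high cells and about 100000 GFP-low cells were sorted by brightness. The study describes low reporter signal in some mesenchymal cells and treats GFP-low cells as a mix of epithelium and connective tissue. Its gene ontology terms for the genes enriched in GFP-low cells included vasculature development. The GFP-low gate thus need not hold epithelium alone. Both groups share genotype, age and pool, and neither received a treatment. The sort gated on GFP, and cells that were autofluorescent or dead were gated out. There is 1 library per population, so no difference below has a replicate check and no test was possible. Each value is the FPKM of 1 library, a read count corrected for transcript length and for sequencing depth, on which the levels of different genes can be compared.

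Vessels are lined by endothelial cells, which recognise one another through junction proteins such as VE-cadherin and PECAM1 and are wrapped by pericytes. Growth of vessels is driven by VEGF ligands, which epithelia and other tissues secrete and which act on VEGF receptors of endothelial cells. Vessel stability is tuned by angiopoietins through the TIE receptors, and adrenomedullin acts on vessels through a receptor made of CALCRL and RAMP2. Vessels of the tongue run in the connective tissue under the epithelium and in the papilla cores, not in the epithelium itself.

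The levels fell into 3 classes. In the upper class, 9 of 37 genes reached 5 FPKM in at least 1 library (*Vegfa*, *Icam1*, *Cspg4*, *Vegfb*, *Egfl7*, *Cd34*, *Eng*, *Ramp2* and *Pecam1*). A further 15 reached 1 FPKM but not 5, among them *Cdh5*, *Tie1*, *Kdr*, *Emcn* and *Vwf*. The remaining 13 were under 1 FPKM in both libraries, among them *Flt1*, *Flt4*, *Fli1*, *Erg* and *Tal1*. The 5 genes with the highest levels, *Vegfa*, *Icam1*, *Cspg4*, *Vegfb* and *Egfl7*, held 77.6% (GFP-high) and 81.3% (GFP-low) of the summed FPKM of the 37 genes. The median level of the 37 genes was 1.86 FPKM (GFP-high) and 0.93 FPKM (GFP-low), while over the 17283 genes with a number in both libraries and a value above 0 in at least 1 it was 11.3 and 11.7 FPKM. Most genes that define endothelial cells were thus detected at low levels beside the epithelial genes *Krt5* (9667 and 10422 FPKM in GFP-high and GFP-low cells) and *Krt14* (6672 and 9635 FPKM).

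**Figure D1:**
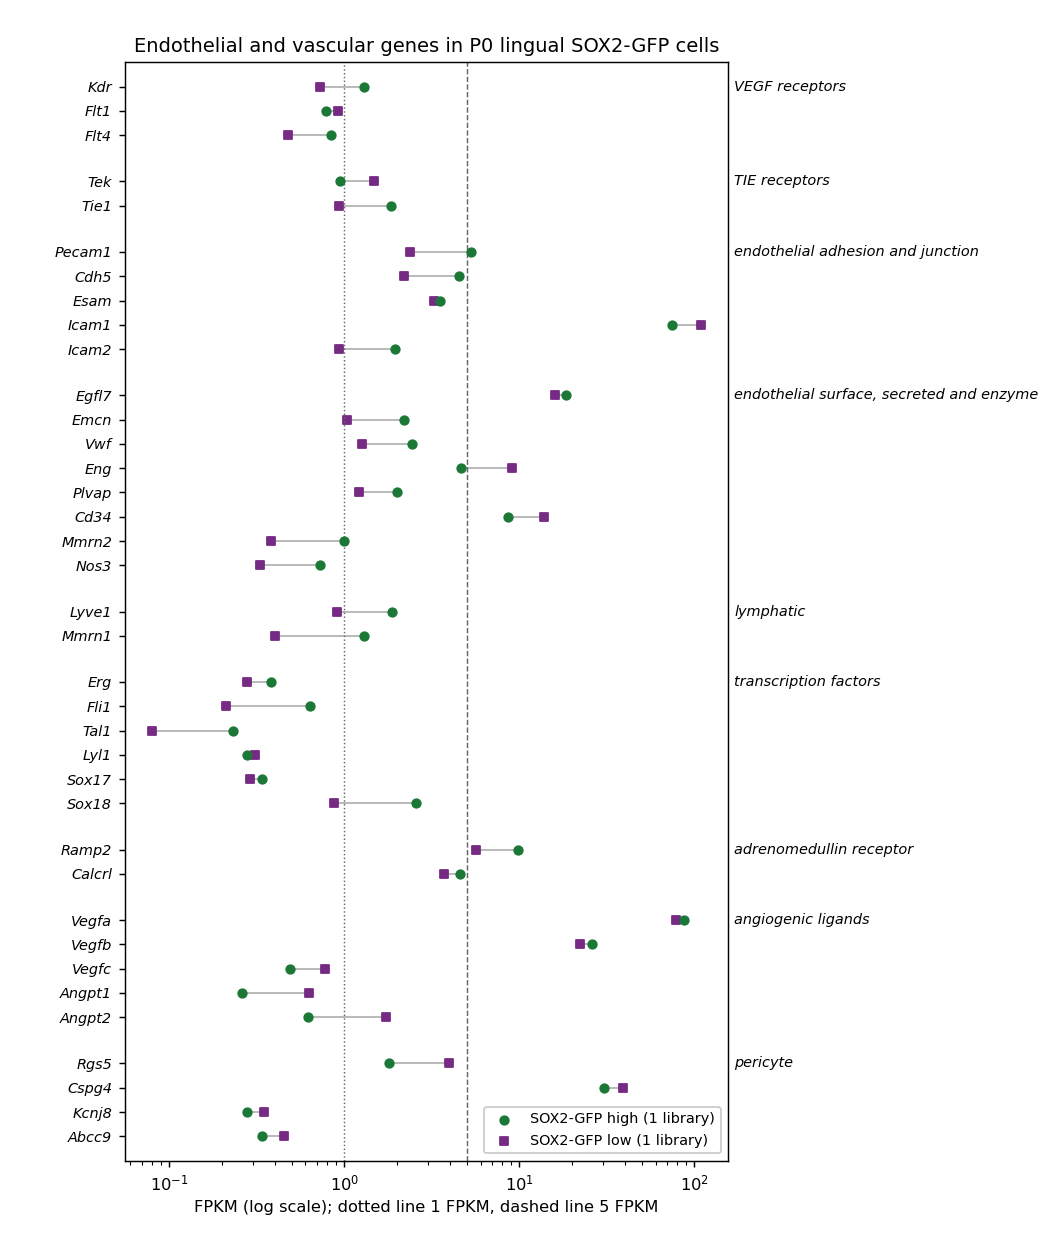
FPKM of the 37 genes for GFP-high (green circles) and GFP-low (purple squares), on a log axis and grouped by role, with 1 library per population and therefore no error bars. *Vegfa*, *Icam1*, *Cspg4*, *Vegfb* and *Egfl7* lie to the right of the dashed line at 5 FPKM in both libraries, while most endothelial genes lie between 0.2 and 5 FPKM with the green circle to the right.

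A gene was counted as enriched in a population where its FPKM there was at least 5 and at least 1.5 times that of the other population. These are the thresholds of the study, whose methods word the FPKM minimum as applying to each sample, and the stricter reading left *Ramp2* in GFP-high and *Cd34* in GFP-low cells. By this rule 2 of the 37 genes were enriched in GFP-high cells (*Pecam1* and *Ramp2*) and 2 in GFP-low cells (*Eng* and *Cd34*). That is 5.41% of the genes in each direction, close to the background over all genes, 5.9% (GFP-high) and 5.54% (GFP-low). On the TPM scale, in which each library is divided by its FPKM sum, the counts were 1 and 3, since *Pecam1* fell to 4.96 and *Icam1* passed 1.5-fold, so that GFP-high genes made up 25.0% of the enriched genes instead of 50%. Over all genes the same share moved from 51.6% to 39.8%.

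Without the FPKM minimum, 17 of the 37 genes (45.9%) leaned to GFP-high cells by 1.5-fold or more, against 18.1% of all genes. To GFP-low cells 7 genes (18.9%) leaned by as much, against 18.8%. Since ratios spread more widely at low levels, the counts were also set against all genes of the same class of level. The class of a gene goes by its higher library, for the 37 genes and for all genes alike. A gene can thus enter a class through 1 library alone. *Kdr*, *Tie1*, *Icam2*, *Lyve1*, *Mmrn1* and *Sox18* reached 1 FPKM in GFP-high cells only, and *Tek* and *Angpt2* in GFP-low cells only. Of the 9 genes of at least 5 FPKM, 2 (22.2%) leaned each way, against 9.48% (GFP-high) and 8.9% (GFP-low) of all genes of that class. Of the 15 genes between 1 and 5 FPKM, 10 (66.7%) leaned to GFP-high cells, against 23.9% of all genes of that class, and 3 (20%) to GFP-low cells, against 27.8%. Of the 13 genes under 1 FPKM, 5 (38.5%) leaned to GFP-high cells, against 36.6%, and 2 (15.4%) to GFP-low cells, against 38.8%. The median difference in log2(FPKM + 1), GFP-high minus GFP-low, was 0.21 over the 37 genes and -0.02 over all genes. These shares describe a pair of libraries. In RNA of sorted populations, a larger number of cells of a type and more RNA per cell cannot be told apart.

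**Figure D2:**
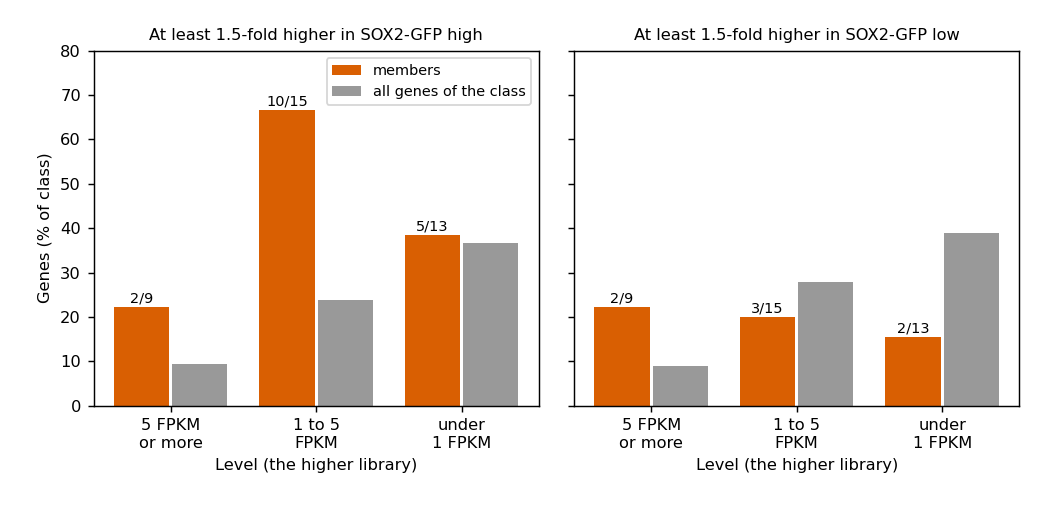
Share of genes past 1.5-fold towards GFP-high cells (left) and towards GFP-low cells (right), in % of genes of each class of level, for the members (orange, with counts above the bars) and for all genes of the class (grey). The class goes by the higher library, so a gene can enter it through 1 library alone. The widest gap is at 1 to 5 FPKM, where 10 of 15 members leaned to GFP-high cells against 23.9% of all genes of the class.

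The deposited values carry limits of depth and of annotation. The sample labels state about 75000000 reads per library. Where low FPKM of short genes with a single annotated transcript fall on steps of whole reads, the steps correspond to a depth near 27500000 reads for GFP-high and 35000000 for GFP-low. Of the values examined, 64.4% of 177 and 62.2% of 180 lay within 0.15 of a whole read at these depths. At such depths the fewest reads stand behind *Tal1* in GFP-low cells and *Lyl1* in GFP-high cells, about 12 each, while the FPKM of *Pecam1* correspond to about 880 and 502 reads. For 2 of the 37 genes, *Ramp2* and *Nos3*, at least 20% of the 50-nt windows of their transcripts also occur in transcripts of another gene.

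Among the junction and adhesion genes, *Pecam1*, *Cdh5* and *Icam2* were 2.06-fold to 2.23-fold higher in GFP-high cells, while *Icam1* was higher in GFP-low cells and *Esam* was nearly level. *Pecam1* (ENSMUSG00000020717, mm10 chromosome 11, 106654217–106750628, minus strand), which encodes a homophilic adhesion protein of endothelial cells, platelets and leukocytes, had 5.31 FPKM in GFP-high against 2.38 FPKM in GFP-low cells, a 2.23-fold difference. *Cdh5*, which encodes VE-cadherin of endothelial adherens junctions, had 4.51 FPKM in GFP-high against 2.19 FPKM in GFP-low cells, a 2.06-fold difference that missed the minimum of 5 FPKM. *Icam2*, an adhesion molecule made constitutively by endothelial cells, had 1.95 and 0.93 FPKM in GFP-high and GFP-low cells, 2.10-fold apart. *Esam*, an adhesion molecule of endothelial tight junctions, had 3.51 and 3.24 FPKM, 1.08-fold apart.

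*Icam1* (ENSMUSG00000037405, mm10 chromosome 9, 21015985–21028817, plus strand) encodes a ligand of leukocyte integrins that inflamed endothelium and also keratinocytes can make. It had 74.0 FPKM in GFP-high against 108 FPKM in GFP-low cells, a 1.46-fold difference that stayed under 1.5-fold as deposited. Its level was thus well above those of *Pecam1* and *Cdh5* in both libraries. The level of *Icam1* was 37.96 times that of *Icam2* in GFP-high cells and 117 times among GFP-low cells, so that the pair did not keep a common ratio. Of the exon bases of *Icam1*, 11.7% overlap those of the annotated gene *Gm47079* on the opposite strand, and the strand setting of the authors' quantification is not given in the sources used here.

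The genes for surface and secreted products of endothelial cells also divided. *Egfl7* (ENSMUSG00000026921, mm10 chromosome 2, 26580014–26593120, plus strand), which encodes a secreted protein of vessel assembly and hosts *Mir126a* in its locus, had 18.5 FPKM in GFP-high against 15.9 FPKM in GFP-low cells, 1.16-fold apart. *Vwf*, the carrier of clotting factor and a platelet ligand, had 2.44 and 1.27 FPKM in GFP-high and GFP-low cells, 1.92-fold apart. *Emcn*, a sialomucin of capillary and venous endothelium, had 2.2 and 1.03 FPKM, 2.14-fold apart. All of these were higher in GFP-high cells, by sizes between 1.16-fold and 2.14-fold.

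*Plvap*, which encodes the diaphragm protein of endothelial fenestrae and caveolae, had 2.0 FPKM in GFP-high against 1.22 FPKM in GFP-low cells, 1.64-fold apart. *Mmrn2*, an endothelial matrix protein, had 0.99 and 0.38 FPKM, 2.61-fold apart. *Nos3*, the endothelial nitric oxide synthase, had 0.73 and 0.33 FPKM, 2.21-fold apart, and 32.3% of its exon bases overlap *Atg9b* or *Gm15587* on the opposite strand. *Atg9b* itself had 2.11 and 3.03 FPKM and so was higher in the other population. *Plvap*, *Mmrn2* and *Nos3* were low in both libraries and higher in GFP-high cells.

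*Eng* and *Cd34* ran in the other direction. *Eng* (ENSMUSG00000026814, mm10 chromosome 2, 32646595–32682669, plus strand), which encodes endoglin, a TGF-beta co-receptor of endothelial and stromal cells, had 4.62 FPKM in GFP-high against 9.07 FPKM in GFP-low cells, 1.96-fold higher in the latter. *Cd34* (ENSMUSG00000016494, mm10 chromosome 1, 194938819–194961279, plus strand), which encodes a sialomucin of endothelium, blood progenitors and fibroblasts, had 8.58 FPKM in GFP-high against 13.8 FPKM in GFP-low cells, 1.61-fold higher in the latter. Both were enriched in GFP-low cells as deposited, on the TPM scale, with GFP-low scaled by the median ratio, and with 1 added to each FPKM. *Eng* was not enriched with a minimum of 10 FPKM or with 5 FPKM required in both populations, and neither gene was with a 2-fold minimum.

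For 22 of the 37 genes the 250 bases before a RefSeq start (assembly GRCm38.p6, the assembly of mm10) could be read, and these windows were searched on both strands for the letters AGGAAG, a core that ETS factors such as ERG and FLI1 can bind. No window was available here for *Pecam1*, *Cdh5*, *Esam*, *Icam2*, *Vwf*, *Plvap*, *Mmrn2*, *Nos3*, *Lyve1*, *Fli1*, *Sox17*, *Sox18*, *Ramp2*, *Angpt1* and *Angpt2*. Of 28 windows of these genes, 9 (32.1%) held AGGAAG, against 29.5% of all 32851 windows. Stretches of 4 of them are shown, since *Emcn* and *Tie1* were higher in GFP-high cells and *Eng* and *Cd34* in GFP-low cells, yet all hold these letters (capitals, here in the reverse complement CTTCCT). The lines run 5′ to 3′ on the strand of the gene, at chr3:137340874-137340939 (plus strand) for *Emcn*, chr4:118490033-118490098 (minus strand) for *Tie1*, chr2:32646513-32646578 (plus strand) for *Eng* and chr1:194938649-194938714 (plus strand) for *Cd34*.
Emcn: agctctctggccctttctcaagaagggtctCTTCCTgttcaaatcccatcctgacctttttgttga
Tie1: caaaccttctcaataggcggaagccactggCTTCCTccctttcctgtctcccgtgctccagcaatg
Eng: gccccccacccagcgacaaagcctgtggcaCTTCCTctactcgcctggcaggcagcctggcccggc
Cd34: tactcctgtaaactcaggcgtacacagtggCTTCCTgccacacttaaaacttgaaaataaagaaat

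The window of *Icam1*, the adhesion gene with the highest level, held GGANNNTCC, the outline of a site that NF-kB can bind, as did windows of *Flt4* and *Abcc9*. That is 3 of 28 windows (10.7%), against 7.27% of all windows. The stretch shown lies at chr9:21015757-21015825 (plus strand), with the match in capitals. The letters ACGTG of hypoxia-responsive sites were found in 1 window, of *Vegfa* (3.57% against 16.6% of all windows), and CANNTG, the E-box that TAL1 complexes can bind, in 16 windows (57.1% against 66.2%). A match is a string of letters and was not tested as a site.
Icam1: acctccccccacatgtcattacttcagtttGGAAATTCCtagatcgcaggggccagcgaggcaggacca

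The VEGF receptors were all at low levels. *Kdr*, which encodes VEGFR2, the main signalling receptor of VEGFA, had 1.30 FPKM in GFP-high against 0.73 FPKM in GFP-low cells, 1.78-fold apart. *Flt4*, which encodes VEGFR3 of lymphatic endothelium and sprouting vessels, had 0.84 and 0.48 FPKM in GFP-high and GFP-low cells, 1.75-fold apart. *Flt1*, which encodes VEGFR1, a high-affinity receptor that also acts as a decoy, had 0.79 and 0.92 FPKM and was 1.16-fold higher in GFP-low cells. The TIE receptors differed in direction as well. *Tie1*, an orphan receptor that modulates TEK, had 1.86 FPKM in GFP-high against 0.93 FPKM in GFP-low cells, 2.0-fold apart. *Tek*, the angiopoietin receptor TIE2, had 0.94 and 1.48 FPKM and was 1.57-fold higher in GFP-low cells.

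Both lymphatic genes were higher in GFP-high cells. *Lyve1*, a hyaluronan receptor of lymphatic endothelium and some macrophages, had 1.87 FPKM in GFP-high against 0.91 FPKM in GFP-low cells, 2.05-fold apart. *Mmrn1*, a secreted protein of lymphatic endothelium and platelets, had 1.29 and 0.40 FPKM, 3.23-fold apart, the largest size among the 37 genes. Of 4 further lymphatic genes, *Ccl21a* was listed at 0 in both libraries. *Prox1*, the lymphatic fate factor that other cell types also make, had 5.4 and 0.36 FPKM in GFP-high and GFP-low cells, *Pdpn* had 26.2 and 17.1 FPKM, and *Reln* had 1.11 and 11.9 FPKM. *Prox1* and *Pdpn* were enriched in GFP-high cells and *Reln* in GFP-low cells. The study counts *Prox1* among its taste and progenitor genes, and *Pdpn* as a putative target of the transcription factors FOXA1 and FOXA2. The part of lymphatic endothelium in the values of *Prox1* and *Pdpn* was not tested.

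The transcription factors were the lowest group, and 5 of the 6 were under 1 FPKM in both libraries. *Sox18*, a SOXF factor of endothelial and lymphatic fate, had 2.56 FPKM in GFP-high against 0.87 FPKM in GFP-low cells, 2.94-fold apart. *Sox17*, its relative in arterial endothelium, had 0.34 and 0.29 FPKM, 1.17-fold apart. The ETS factor *Fli1* had 0.64 and 0.21 FPKM, 3.05-fold apart, and the ETS factor *Erg* had 0.38 and 0.28 FPKM, 1.36-fold apart. The blood and endothelial helix-loop-helix factors had 0.23 and 0.08 FPKM (*Tal1*) and 0.28 and 0.31 FPKM (*Lyl1*). For *Tal1*, rounding of the deposited values to 2 decimals alone allows a ratio between 2.65 and 3.13. Of this group, 5 were higher in GFP-high cells and *Lyl1* in GFP-low cells.

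**Figure D3:**
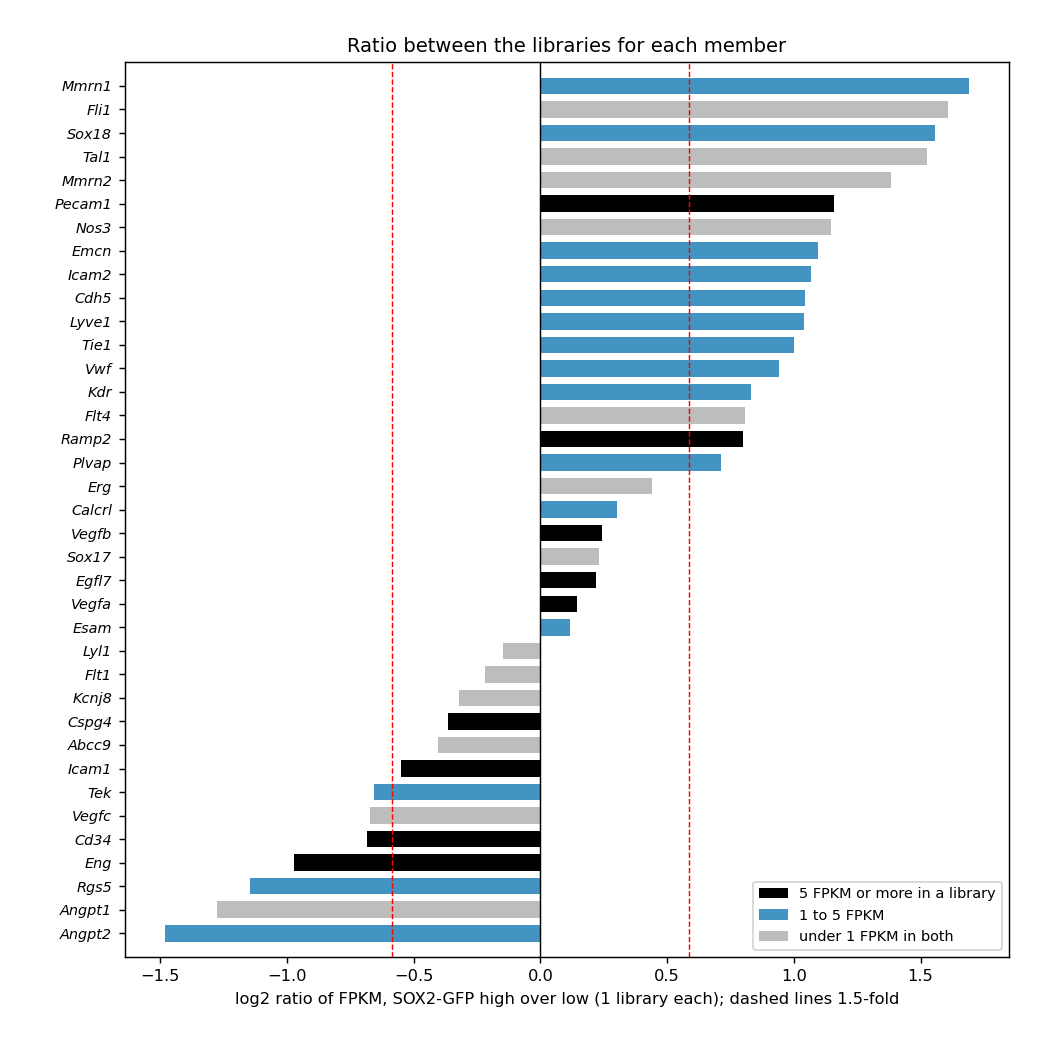
Log2 ratio of FPKM, GFP-high over GFP-low, for each of the 37 genes, sorted and coloured by level (black, 5 FPKM or more in a library, blue, 1 to 5 FPKM, grey, under 1 FPKM in both), with dashed lines at 1.5-fold. The bars run from -1.48 (*Angpt2*) to 1.69 (*Mmrn1*), and the genes of 5 FPKM or more lie between -0.97 (*Eng*) and 1.16 (*Pecam1*).

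Over the 26 endothelial genes, that is, all but the ligands, the pericyte genes and the lymphatic genes, 20 had their higher value in GFP-high cells and the other 6 in GFP-low cells (15 and 3 by at least 1.5-fold), with a median log2(FPKM + 1) difference of 0.35. Over all genes, 45.6% were higher in GFP-high cells against 53.5% in GFP-low cells. The summed FPKM of the 26 went the other way, 154 (GFP-high) and 176 (GFP-low), with *Icam1* the largest term. Of the 20 that stayed under 5 FPKM in both libraries, 17 were higher in GFP-high cells, against 45.6% of all genes between 1 and 5 FPKM and 48.2% of those under 1 FPKM. Their FPKM summed to 33.1 (GFP-high) and 20.9 (GFP-low), a ratio of 1.58. The 6 at higher levels (*Pecam1*, *Icam1*, *Egfl7*, *Eng*, *Cd34* and *Ramp2*) were split, with *Icam1*, *Eng* and *Cd34* higher in GFP-low cells.

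A separate list of 31 endothelial genes was split in direction, and differently by class of level. Of these, 16 had their higher value in GFP-high cells and the other 15 in GFP-low cells, against 45.6% and 53.5% of all genes. By at least 1.5-fold the counts were 10 (32.3%) and 9 (29.0%), against 18.1% and 18.8% of all genes. The median difference was 0.00 and became -0.08 on the TPM scale. Of its 11 genes between 1 and 5 FPKM, 9 were higher in GFP-high cells, against 45.6% of all genes of that class. By at least 1.5-fold, 6 were higher there (*Cldn5*, *Robo4*, *Ecscr*, *Gpihbp1*, *Aplnr* and *Notch4*), against 23.9% of all genes of that class. Towards GFP-low cells 1 (*Gja4*) passed 1.5-fold, against 27.8%. Of its 9 genes of at least 5 FPKM, 2 were higher in GFP-high cells and the other 7 in GFP-low cells. Over all genes of that class the shares were 44.6% and 55.4%. Of its 11 genes under 1 FPKM, 5 were higher in GFP-high cells and the other 6 in GFP-low cells. Over all genes of that class the shares were 48.2% and 48.6%. The difference between the lists was not tested. Of the 31 genes, none was enriched in GFP-high cells at 5 FPKM, against 5.9% of all genes. In GFP-low cells 5 (16.1%) were enriched, against 5.54%. These were *Clec14a* (0.46 and 10.3 FPKM in GFP-high and GFP-low cells), *Ets1* (4.26 and 17.9 FPKM), *Ly6c1* (21.1 and 73.4 FPKM), *Aqp1* (5.28 and 9.43 FPKM) and *Sox7* (3.04 and 6.05 FPKM). *Ly6c1* shares 32.8% of its 50-nt windows with other transcripts, mainly those of *Ly6c2*, and *Ets1*, *Aqp1* and *Ly6c1* are also made by other cell types. *Klf2*, a flow-responsive factor of endothelium, had 21.8 and 23.8 FPKM. Among the 10 higher in GFP-high cells by at least 1.5-fold were *Aplnr* (3.86 and 1.06 FPKM), *Gpihbp1* (2.81 and 0.83 FPKM) and *Notch4* (1.54 and 0.46 FPKM), which were picked after their values were seen.

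Among the angiogenic ligands, those with high levels were nearly the same in both populations and those with low levels were higher in GFP-low cells. *Vegfa* (ENSMUSG00000023951, mm10 chromosome 17, 46016993–46032369, minus strand), the ligand that drives vessel growth, had 87.1 FPKM in GFP-high against 78.7 FPKM in GFP-low cells, 1.11-fold apart. *Vegfb* (ENSMUSG00000024962, mm10 chromosome 19, 6982473–6987651, minus strand), a ligand of VEGFR1, had 26.15 and 22.1 FPKM, 1.18-fold apart. *Vegfc*, the lymphatic ligand of VEGFR3, had 0.49 and 0.78 FPKM in GFP-high and GFP-low cells, 1.59-fold higher in the latter. *Vegfa* was thus at 67.0 times the level of *Kdr* in GFP-high cells but 108 times in GFP-low cells, with *Kdr* the gene of the pair that differed more.

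*Angpt1*, the agonist of TEK that mural and stromal cells make, had 0.26 FPKM in GFP-high against 0.63 FPKM in GFP-low cells, 2.42-fold higher in the latter. *Angpt2*, the context-dependent antagonist made by activated endothelium, had 0.62 and 1.73 FPKM, 2.79-fold higher in GFP-low cells. Both angiopoietins and their receptor *Tek* were therefore higher in GFP-low cells, at levels under 2 FPKM, while *Tie1* was higher in GFP-high cells. Of 4 other genes of this pathway none was enriched. The adaptor gene *Dok2* had 5.52 and 3.69 FPKM, *Ptprb*, which encodes the endothelial phosphatase VE-PTP, had 0.72 and 0.29 FPKM, and *Svep1* had 0.34 and 0.46 FPKM. *Angpt4*, a further angiopoietin, was at 0.03 and 0.01 FPKM.

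Of 6 other genes of the VEGF pathway, *Nrp1* alone was enriched, in GFP-low cells (2.99 FPKM in GFP-high against 6.57 FPKM in GFP-low cells, 2.197-fold). That is 16.7% of the 6, against 5.54% of all genes. *Nrp2*, the co-receptor for lymphatic VEGF ligands and semaphorins, had 12.65 and 17.5 FPKM, and the effector *Plcg1* had 85.2 and 92.5 FPKM. The adaptor *Shb* had 55.0 and 38.02 FPKM, and the ligand genes *Vegfd* and *Pgf* had 9.23 and 8.78 FPKM and 0.63 and 0.93 FPKM. All 10 genes of the hypoxia response, which controls transcription of *Vegfa*, were at 5 FPKM or more in at least 1 library. One of the 10 was enriched in GFP-high cells (*Ndrg1*, 173 and 90.2 FPKM) and 1 in GFP-low cells (*Epas1*, which encodes HIF2-alpha, 21.5 and 35.7 FPKM). *Hif1a* had 85.04 and 101 FPKM and the prolyl hydroxylase gene *Egln2* 95.7 and 87.0 FPKM. The median difference over the 10 was -0.15.

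**Figure D4:**
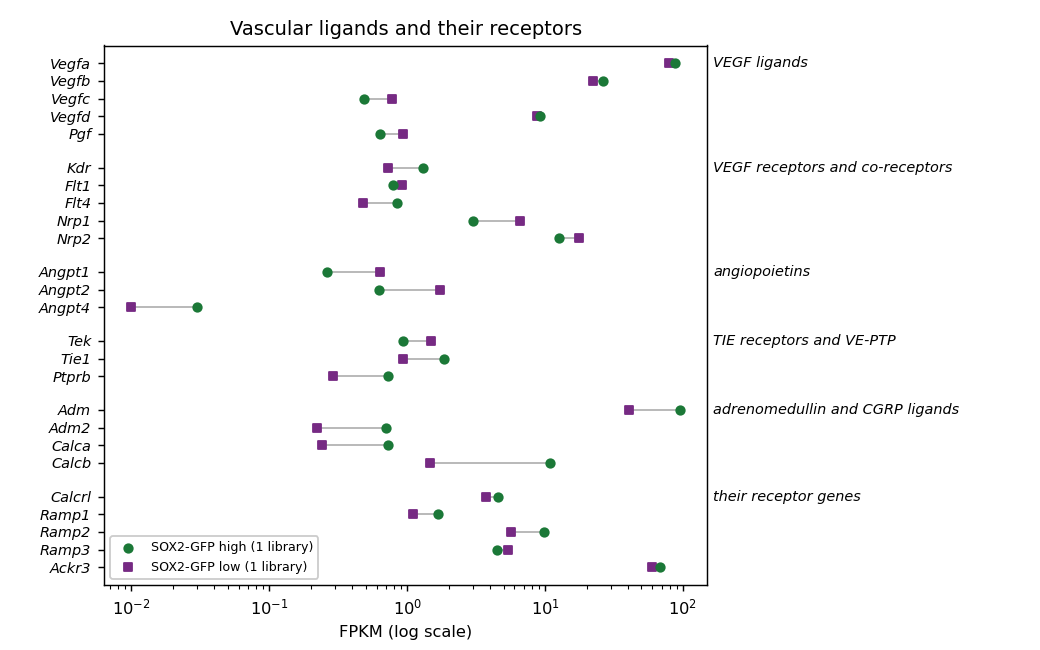
FPKM of vascular ligands and of their receptors for GFP-high (green circles) and GFP-low (purple squares), on a log axis, 1 library each. *Vegfa*, *Vegfb* and *Adm* stand above 20 FPKM in both libraries, and *Kdr*, *Flt1*, *Flt4*, *Tek* and *Tie1* below 2 FPKM.

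The adrenomedullin receptor genes were both higher in GFP-high cells. *Ramp2* (ENSMUSG00000001240, mm10 chromosome 11, 101246028–101259546, plus strand), which encodes the subunit that makes CALCRL a receptor for adrenomedullin, had 9.77 FPKM in GFP-high against 5.62 FPKM in GFP-low cells, 1.74-fold apart. Of its annotated exon bases, 33.4% are shared with *Vps25* on the same strand, an endosomal sorting gene with 249 and 207 FPKM, 1.203-fold apart. The part of *Vps25* reads in the value of *Ramp2* was not tested. *Calcrl*, the receptor subunit, had 4.57 FPKM in GFP-high against 3.71 FPKM in GFP-low cells, 1.23-fold apart, with no exon overlap.

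The ligand gene *Adm*, which encodes adrenomedullin, had 94.8 FPKM in GFP-high against 40.8 FPKM in GFP-low cells, a 2.32-fold difference. *Calcb*, which encodes a CGRP peptide that acts on CALCRL with RAMP1, had 10.9 and 1.47 FPKM, 7.44-fold apart. Both were enriched in GFP-high cells, the only ones of 7 other genes of this pathway (28.6%, against 5.9% of all genes). *Ackr3*, a scavenging receptor of adrenomedullin, had 67.9 and 59.5 FPKM. Over these 7 genes the median difference was 0.48, and 6 were higher in GFP-high cells, against 45.6% of all genes. That median is the value of *Adm2* (0.70 and 0.22 FPKM), which like *Calca* (0.73 and 0.24 FPKM) was under 1 FPKM in both libraries. *Adm* was at 20.7 times the level of *Calcrl* in GFP-high cells but 11.0 times in GFP-low cells.

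Each of the 4 pericyte genes had its higher value in GFP-low cells, as did 53.5% of all genes, without meeting the rule for enrichment. *Rgs5*, a regulator of G-protein signalling in pericytes, had 1.80 FPKM in GFP-high against 3.98 FPKM in GFP-low cells, 2.21-fold apart. *Cspg4* (ENSMUSG00000032911, mm10 chromosome 9, 56865033–56899870, plus strand), which encodes the NG2 proteoglycan of pericytes, glial precursors and some keratinocytes, had 30.5 and 39.3 FPKM, 1.29-fold apart. *Abcc9* and *Kcnj8*, which encode the subunits of a potassium channel of mural cells, had 0.34 and 0.45 FPKM and 0.28 and 0.35 FPKM, 1.32-fold and 1.25-fold apart. *Cspg4* thus stood far above the other pericyte genes in both libraries.

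Of 15 further genes of pericytes and smooth muscle, 10 were higher in GFP-low cells, against 53.5% of all genes, with a median difference of -0.39. Of the 15, 4 (26.7%) were enriched in GFP-low cells, against 5.54% of all genes. These were *Acta2* (16.3 FPKM in GFP-high against 49.5 FPKM in GFP-low cells), *Myh11* (0.80 and 6.56 FPKM), *Tagln* (6.45 and 23.4 FPKM) and *Mcam* (51.9 and 96.55 FPKM). The part of cells other than mural cells in their values was not tested. *Tagln* shares 58.3% of its 50-nt windows with another annotated transcript. *Ndufa4l2* (436 and 159 FPKM) and *Anpep* (58.2 and 28.8 FPKM) were enriched in GFP-high cells, and both are known outside mural cells, the former as a hypoxia-induced mitochondrial gene. *Notch3* had 57.04 and 38.05 FPKM, just under 1.5-fold.

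Markers of other cell types were set beside these values. Of the 9 genes listed as endothelial markers, 7 are among the 37 genes described above and are no separate evidence. The other 2, *Cldn5* and *Cd93*, had 2.05 and 1.34 FPKM and 1.35 and 1.04 FPKM. Likewise 4 of the 6 pericyte markers are among the 37, and the other 2, *Pdgfrb* and *Notch3*, had 1.36 and 2.96 FPKM and 57.04 and 38.05 FPKM. Of the mast cell genes 7 of 8 were higher in GFP-high cells, against 45.6% of all genes. Of the 8, 3 (37.5%) were enriched in GFP-high cells, against 5.9% of all genes, and the list summed to 63.6 and 31.95 FPKM. The largest term of this sum was *Kit*, with 31.4 and 26.2 FPKM, 1.20-fold apart. Of the mast cell genes, *Tpsb2* had 10.65 and 2.35 FPKM, while *Ms4a2* (0 and 0.01 FPKM) and *Fcer1a* (0.05 and 0 FPKM) were at or near 0 in both libraries. All 7 erythroid genes were higher in GFP-high cells and 3 (42.9%) were enriched there, against 45.6% and 5.9% of all genes. The erythroid list summed to 118 and 41.0 FPKM. *Hbb-bs* had 63.9 and 23.0 FPKM, and the globin genes share 53.2% to 89.3% of their windows with one another or other genes.

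The leukocyte genes summed to 21.5 FPKM in GFP-high against 23.0 FPKM in GFP-low cells, none of 11 was enriched, and *Cd3e* had 0 and 0.02 FPKM. Platelet genes summed to 69.8 and 45.3 FPKM, with 2 of 6 (33.3%) enriched in GFP-high cells, against 5.9% of all genes. These were *Itga2b* (57.7 and 36.6 FPKM) and *Gp1bb* (10.04 and 5.54 FPKM), of which *Gp1bb* shares 90.6% of its windows, mainly with *Sept5*. *Itga2b* was 1.57-fold apart and falls under 1.5-fold on the TPM scale. *Itga2b* alone made up most of the sum. *Pf4* (1.54 and 2.6 FPKM) and *Ppbp* (0.46 and 0.53 FPKM) were higher in GFP-low cells, and *Gp9*, a defining platelet gene, was listed at 0 in both libraries. The part of blood cells in the values of *Pecam1*, *Tal1*, *Fli1*, *Lyl1*, *Icam2* and *Mmrn1*, which such cells also make, was not tested.

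Connective tissue ran the opposite way. All 8 fibroblast genes were higher in GFP-low cells and 6 (75.0%) were enriched there, against 53.5% and 5.54% of all genes. They summed to 475 FPKM in GFP-high against 2286 FPKM in GFP-low cells, with *Col3a1* at 193 and 966 FPKM. All 7 genes of the Schwann lineage were higher in GFP-low cells and 5 (71.4%) were enriched there, against the same shares. They summed to 67.4 and 263 FPKM. Most of the GFP-high sum was *Erbb3*, with 60.25 and 66.9 FPKM, 1.11-fold apart. No gene of these lists was listed at 0. *Cd34*, *Eng*, *Angpt1*, *Nrp1* and the pericyte genes moved in the same direction as these lists, and the part of fibroblasts in their values was not tested. The skeletal muscle genes summed to 19.3 and 16.9 FPKM with 1 of 5 enriched in GFP-high cells, and the keratinocyte genes to 17164 and 20811 FPKM with 1 of 5, *Epcam*, enriched in GFP-high cells.

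**Figure D5:**
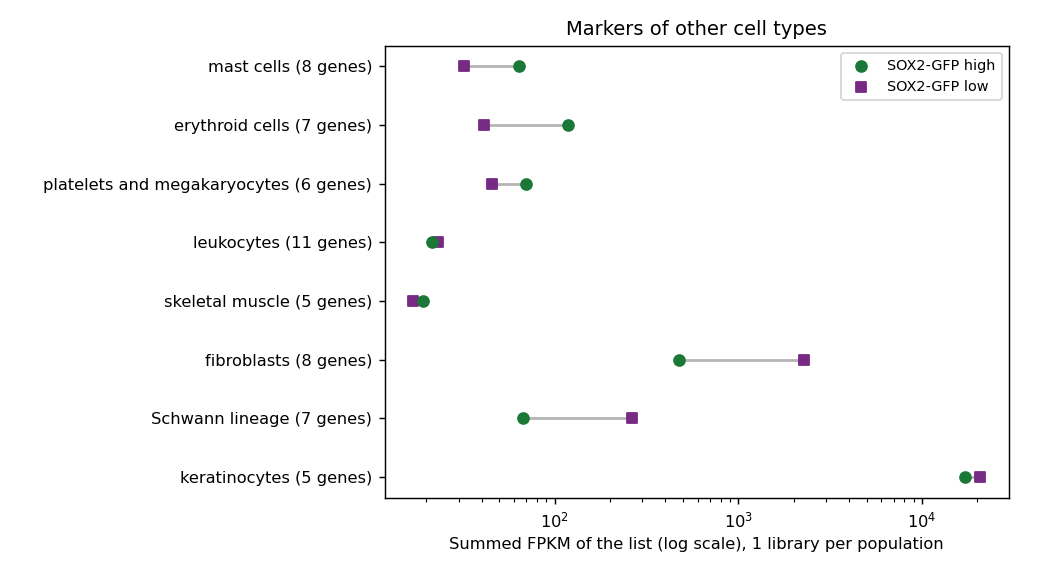
Summed FPKM of lists of marker genes of other cell types for GFP-high (green circles) and GFP-low (purple squares), on a log axis, with 1 library per population. The mast cell and erythroid lists lie further right in GFP-high cells (63.6 against 31.95 FPKM for mast cell genes), and the fibroblast and Schwann lists in GFP-low cells. *Kit* (31.4 and 26.2 FPKM) is the largest term of the mast cell sums.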

How the data were processed

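RNAseq of 1 GFP-high and 1 GFP-low library was used. Per the labels and the study's methods, the authors sequenced 50 nt from 1 end of each fragment, ran Trimmomatic 0.36 and GSNAP on mm10, and deposited FPKM of Cufflinks 2.2.1 at 2 decimals. The FPKM columns are named means, but the labels give 1 sample per population, and each was read as 1 library. A signed fold score, the authors' ratio of the columns, was also deposited and was not used.

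Of 21628 entries, 21 typed as other than protein-coding by GENCODE M21 were left out, as were genes at 0 in both libraries or without a number, leaving 17283. All 37 genes are named. Genes of the pathway lists were named where enriched or among the 3 highest, and of the marker lists examples among the 2 highest, the enriched and those at 0. Outside this rule, other endothelial genes of 1 to 5 FPKM that passed 1.5-fold were named. So were *Vegfd*, *Pgf*, *Angpt4*, *Adm2*, *Calca*, *Ccl21a*, *Cldn5*, *Cd93*, *Pdgfrb*, *Pf4* and *Ppbp*. Single values of some marker genes are not reported here. *Vegfd* was matched by identifier. The genes and lists were chosen with earlier results of these data known. No test was run, since there is 1 library per population. Ratios are of FPKM as deposited, and medians are of log2(FPKM + 1), a pseudocount of 1 that understates differences of low genes. Depth was estimated from genes with 400 to 1200 nt of exons, less 200 nt, and is approximate. That range was kept after a wider one, to 2500 nt, had also been tried on the data, which gave 27500000 and 35500000 reads with fewer values near whole reads (55.7% and 49.9%). The ratio procedure was tested on simulated data. Alternatives were other FPKM and fold minimums, pseudocounts, 2 scalings and all entries. Python 3.11.15, pandas 2.3.3, numpy 2.4.6 and matplotlib 3.10.9 were used.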

Additional observations from a re-analysis of the deposited data

How the results depend on the processing

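With 1 library per population the precision of every ratio is unknown. No paired analysis was possible because each population has 1 library, and no library could be left out. On the TPM scale every log2 ratio shifts by -0.10 towards GFP-low. None of the 37 genes changed direction on the TPM scale, with GFP-low scaled by the median ratio (0.973) or with 1 added to each FPKM. The enriched members numbered 2 and 2 (GFP-high, then GFP-low). These counts became 17 and 7 with no FPKM minimum, 12 and 5 with a minimum of 1 FPKM, 0 and 1 (*Cd34*) with 10 FPKM, 1 (*Ramp2*) and 1 (*Cd34*) with 5 FPKM in both populations, 1 (*Pecam1*) and 0 with a 2-fold minimum, and 1 (*Ramp2*) and 3 on the TPM scale. Over all genes, 1020 and 958 became 3131 and 3248 with no FPKM minimum, 1540 and 1563 at 1 FPKM and 448 and 467 at 2-fold, and the GFP-low count was 633 with 5 FPKM in both. The median difference over endothelial members, 0.35, was 0.73 with a pseudocount of 0.1, and that over pericyte genes, -0.23, was -0.59 over the 2 genes with a mean of at least 1 FPKM. The median over other endothelial genes was 0.003 and became -0.085 on the TPM scale and 0.038 with the median ratio. Fewer or more genes pass a changed minimum by construction.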

Other observations

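On the mm10 genome 2 pairs of the 37 genes lie within 500 kb of each other. *Kcnj8* and *Abcc9*, the channel subunit genes, lie 16.2 kb apart on chromosome 6 with no protein-coding gene between them, and both were higher in GFP-low cells, by 1.25-fold and 1.32-fold. *Icam2* and *Pecam1* lie 266 kb apart on chromosome 11 with 2 protein-coding genes between them, and both were higher in GFP-high cells, by 2.10-fold and 2.23-fold. The pairing was noticed after the values were seen and was not tested.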
